A study of Bos taurus with 9 samples.

Results

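The NLRP genes and the subcortical maternal complex were followed through cloned cattle embryos. Members were the rows of the deposited expression files whose symbol was NLRP2, NLRP5, NLRP8, NLRP9, NLRP13, NLRP14, OOEP, TLE6, KHDC3L or PADI6. Of these 10 listed genes, 7 had a row, each a single row, among the 16129 genes present in all 9 files. They were 4 NLRP genes (NLRP5, NLRP8, NLRP9 and NLRP14) and 3 others (OOEP, KHDC3L and PADI6). No row carried the symbol NLRP2, NLRP13 or TLE6, and these genes are not analysed here. The 8-cell files give no symbol to the KHDC3L row, which was joined by its gene identifier.

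The subcortical maternal complex is a protein assembly that the growing oocyte stores beneath its plasma membrane and that mammalian embryos need for the first cleavages. NLRP5 (also called MATER), OOEP, TLE6 and KHDC3L are its core parts, and PADI6, a relative of the protein-arginine deiminases, is needed for the cytoplasmic lattices on which maternal proteins are stored. NLRP proteins share a nucleotide-binding NACHT domain and leucine-rich repeats. Some members serve as inflammasome sensors in immune cells, whereas a reproductive branch, to which NLRP5, NLRP8, NLRP9 and NLRP14 belong, is expressed chiefly in oocytes. Transcripts of this kind are made before ovulation and are cleared as the embryo starts to use its own genome, which in cattle happens around the 8-cell stage.

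All 9 libraries came from cattle (Bos taurus) embryos cloned by somatic cell nuclear transfer (SCNT), and each of the 3 groups held 3. Per the labels' protocols, nuclei of fibroblasts from a female Holstein fetus were placed into enucleated oocytes from abattoir ovaries, and the embryos were activated chemically. The KDM6A morulae received mRNA for wild-type bovine KDM6A, a demethylase of lysine 27 in histone H3, 1 h after activation. The control morulae received no injection, so KDM6A and the injection itself cannot be told apart. Morulae, which compact shortly before a blastocyst forms, were taken on day 5 in pools of 5 embryos. The 8-cell embryos were not injected, and the series takes their libraries from an earlier series, so the stage and the series of origin cannot be told apart. Nothing in the labels says that the pools of 1 group were made on separate days or from separate oocytes, so the p-values reflect the spread of these samples only, and part of that spread may be technical. Values are FPKM (fragments counted per kilobase and scaled to the size of the library), which allow levels of different genes to be compared per length. The depth of the libraries is unknown. In whole embryos, fewer cells holding a transcript and less of it per cell cannot be told apart, and FPKM give shares of a library, not molecules per embryo. The sources used here do not say how reads were divided among the related NLRP genes, so values of single NLRP genes carry that uncertainty.

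Stage markers were checked first. Of 11 embryo markers with a single row, each reached 1 FPKM in all 6 morula libraries, and the keratins KRT8 and KRT18 stayed below 1 FPKM in the 3 8-cell libraries. KRT18 was at 46.6 ± 17.7 FPKM in control morulae (SD, n = 3) and 0.253 ± 0.191 in 8-cell embryos, and the pluripotency factor POU5F1 at 146 ± 21.6 and 8.40 ± 2.18. The pluripotency factor SOX2 was at 13.1 ± 2.38 FPKM in control morulae and 1.88 ± 1.01 in 8-cell embryos. The limma test and filter are described with the members. Of the 11, 6 were called higher and 4 lower in control morulae, against 42.7% and 27.1% of all genes. KRT8 and KRT18 passed the filter only through the morula libraries, where they were high. NANOG, also a pluripotency factor, was called lower, from 86.8 ± 24.9 to 42.4 ± 2.1 FPKM (limma adjusted p = 0.00429). TFAP2C, ZSCAN4 and KLF17 were called lower as well. Cumulus cells surround the oocyte and are a possible passenger. Their 12 markers summed to 13.5 to 15.3 FPKM in control morulae, 8.65 to 14.3 in KDM6A morulae and 19.3 to 37.3 in 8-cell embryos, with CYP19A1 at 0.20 FPKM or less in each library. By the same test, 3 of the 12 could be tested between control morulae and 8-cell embryos, and 2 were called lower in control morulae, against 27.1% of all genes. These 2 calls go in the same direction as most members. The other tested marker, STAR, gave no call (limma adjusted p = 0.298). It was at 6.82 ± 3.7 FPKM in 8-cell embryos and 8.63 ± 0.68 in control morulae. All markers below the filter had means under 1 FPKM in both groups. Of these, GREM1 was lower in control morulae and the others were higher. HAS2, a hyaluronan synthase that cumulus cells use in expansion, was at 5.57, 19.82 and 9.34 FPKM in 8-cell replicates 1, 2 and 3 and at 0.97 ± 1.11 in control morulae (limma adjusted p = 0.000741). HAS2 passed the filter only through the 8-cell libraries, where it was high. The count of 2 therefore supports nothing about the list. TNFAIP6, a hyaluronan-binding protein, went from 7.40 ± 1.95 to 2.76 ± 0.368 FPKM (limma adjusted p = 0.00257). The 16 donor fibroblast markers summed to 545 to 776, 452 to 609 and 69.4 to 120 FPKM in the same order of groups, mostly from SPARC and FN1. Single fibroblast markers went both ways. Of 9 tested between control morulae and 8-cell embryos, SPARC, FN1 and THY1 were called higher in control morulae, and the matrix genes COL5A1 (2.61 ± 1.30 FPKM in 8-cell embryos to 0.00333 ± 0.00577 in control morulae), LUM (12.3 ± 14.7 to 1.36 ± 0.87) and FBN1 (5.51 ± 4.41 to 0.67 ± 0.871) were called lower, with limma adjusted p of 0.000378, 0.0272 and 0.00484. These counts of 3 higher and 3 lower stand against 42.7% and 27.1% of all genes. Of the 9, 4 had fewer than 3 control morula libraries at 1 FPKM, among them COL5A1, LUM and FBN1. COL5A1, LUM and FBN1 therefore passed the filter only with the help of the 8-cell libraries, where their means were high. FN1 and THY1 passed only through the morula libraries, where they were high. The counts therefore support nothing about the list. The fibrillar collagen gene COL3A1 was at 2.48 FPKM in 8-cell replicate 2 and at 0.01 or less in the other libraries. The part of either marker list in the differences between stages was not tested.

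Among the members, NLRP8 had the highest mean in 8-cell embryos and OOEP in morulae. In 8-cell embryos the order by mean was NLRP8 (50.6 ± 8.77 FPKM, SD, n = 3), OOEP (30.8 ± 12.6), NLRP14 (28.2 ± 7.07), NLRP9 (18.2 ± 4.97), KHDC3L (8.70 ± 6.79), PADI6 (3.71 ± 1.03) and NLRP5 (1.25 ± 0.387). Neighbours in this order had overlapping values except NLRP14 and NLRP9, and PADI6 and NLRP5. In control morulae OOEP stood at 22.0 ± 4.73 FPKM, above every value of the others, the highest of which was 5.82 FPKM for NLRP14. The other 6 had means of 0.29 to 2.86 FPKM and overlapped with their neighbours in the order. In KDM6A morulae OOEP stood at 19.3 ± 5.74 FPKM, and the other 6 had means of 0.113 to 1.82.

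**Figure D1:**
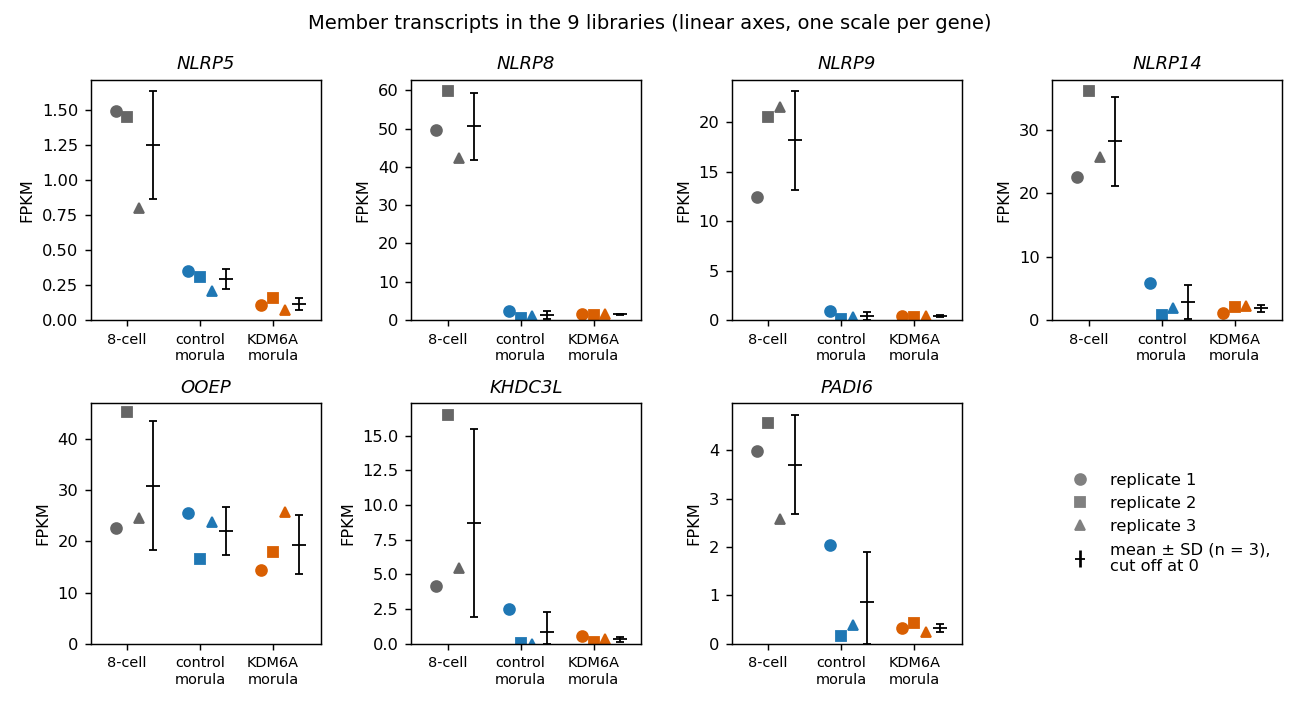
FPKM of the 7 genes in each of the 9 libraries, on a linear axis per gene, with 8-cell embryos in grey, control morulae in blue and KDM6A morulae in orange; marker shapes give the replicate and black bars the mean ± SD. NLRP8, NLRP9 and NLRP14 lie far lower in the 6 morula libraries than in 8-cell embryos, while the values of OOEP overlap between all 3 groups.

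The comparison of control morulae with 8-cell embryos asks how the maternal stock differs between the stages. A gene was tested where 3 or more of the 6 libraries reached 1 FPKM. The test was that of limma on log2(FPKM + 1), with Benjamini-Hochberg adjustment over all genes tested and a call at an adjusted p under 0.05. Fold changes on this scale understate the change of low genes. Of 10048 genes tested, 27.1% were called lower and 42.7% higher in control morulae. Of the 7 members, 6 passed the filter, 5 of these were called lower and 0 higher. NLRP8, NLRP9, NLRP14, KHDC3L and PADI6 had fewer than 3 control morula libraries at 1 FPKM and passed only through the 8-cell libraries, where they were high. The count of 5 therefore supports nothing about the group. With no filter all 7 members were tested, and 6 were called lower, against 17.6% of 16129 genes. The median log2 fold change of the tested genes was 0.35 as deposited, 0.07 once quantile-normalized and 0.11 under median-of-ratios scaling. A gene at the median of all genes therefore stood slightly higher in morulae. The calls were 4293 higher and 2719 lower as deposited, 3687 and 3269 under median-of-ratios scaling and 3625 and 3340 once quantile-normalized, so the shares of all genes given beside later counts move with the scaling.

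NLRP8, an oocyte-type NLRP gene, was at 49.68, 59.77 and 42.31 FPKM in 8-cell replicates 1, 2 and 3 and at 2.47, 0.57 and 1.02 in control morula replicates 1, 2 and 3. The lowest 8-cell library stood far above the highest morula library. The mean was 37.4-fold lower in control morulae, with a log2 fold change of -4.52 (95% interval -5.22 to -3.82, limma adjusted p = 3.05e-06). In its library, NLRP8 was above 87.3% to 90.8% of all genes in 8-cell embryos and above 38.1% to 51.2% in control morulae. Without control replicate 1 the fold was 63.6.

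NLRP9, a second member of the oocyte branch, was at 12.45, 20.47 and 21.54 FPKM in the 8-cell libraries and at 0.88, 0.15 and 0.27 in the control morulae. No control morula reached 1 FPKM, and the groups did not overlap. The mean was 41.9-fold lower in control morulae, and 86.4-fold lower without control replicate 1. The log2 fold change was -3.74 (95% interval -4.40 to -3.07, limma adjusted p = 6.36e-06).

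NLRP14, which in mouse oocytes is known to be needed for embryos to pass early cleavage, was at 22.59, 36.11 and 25.79 FPKM in 8-cell embryos and at 5.82, 0.86 and 1.89 in control morulae. Its highest morula value, that of control replicate 1, was 20.7% of the 8-cell mean. The mean was 9.86-fold lower in control morulae (log2 fold change -3.11, 95% interval -4.06 to -2.15, limma adjusted p = 0.00014), and 20.5-fold lower without control replicate 1.

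NLRP5, the founding member of the complex, was the lowest of the 7 in 8-cell embryos. It was at 1.49, 1.45 and 0.80 FPKM there and at 0.35, 0.31 and 0.21 in control morulae. The groups did not overlap, and the mean was 4.30-fold lower in control morulae. It was below the filter and so was not tested with the others. With no filter it was called lower, at a log2 fold change of -0.79 (limma adjusted p = 0.00975). Leaving out any single library moved none of its folds by more than 1.5 times.

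OOEP, a small KH-domain protein of the complex, gave no call. It was at 22.66, 45.36 and 24.50 FPKM in 8-cell embryos and at 25.48, 16.59 and 23.85 in control morulae. The groups overlapped, and 8-cell replicate 2 alone stood clearly above the control morulae. The log2 fold change was -0.42, with a 95% interval of -1.08 to 0.23 and a limma adjusted p = 0.219. The interval runs from a lowering of more than 1 log2 unit to a small rise. Over the 13 alternatives run for OOEP the log2 fold change ran from -0.69 to -0.12 and the adjusted p from 0.0624 to 0.676. Against all genes of its library, OOEP ranked above 82.0% to 88.7% in 8-cell embryos and above 76.3% to 81.6% in control morulae.

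KHDC3L, a KH-domain partner of OOEP, lies next to it in the RefSeq annotation of ARS-UCD2.0, with 0 protein-coding genes between them. It was at 4.13, 16.50 and 5.48 FPKM in 8-cell embryos, and at 2.53 and 0.07 in control morula replicates 1 and 2 and listed at 0 in replicate 3. The control value of replicate 1 was 29.1% of the 8-cell mean and that of replicate 2 was 0.804%. The mean was 10.0-fold lower in control morulae (log2 fold change -2.42, 95% interval -3.66 to -1.19, limma adjusted p = 0.00303). The fold rests on single libraries, since it was 249 without control replicate 1 and 5.54 without 8-cell replicate 2.

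PADI6 was at 3.98, 4.57 and 2.57 FPKM in 8-cell embryos and at 2.04, 0.16 and 0.38 in control morulae. Control replicate 1 came close to the lowest 8-cell library, and the groups did not overlap. The mean was 4.31-fold lower in control morulae, and 13.7-fold lower without control replicate 1. The log2 fold change was -1.45 (95% interval -2.25 to -0.64, limma adjusted p = 0.00488).

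An exact two-sided permutation test was run for each gene on its own. This exact permutation test gave p = 0.1, the lowest value possible with 3 against 3 libraries, for NLRP5, NLRP8, NLRP9, NLRP14, KHDC3L and PADI6, and 0.5 for OOEP. Differences were common in this comparison, with 72.3% of all genes tested at an unadjusted limma p under 0.05. The share of all genes without overlap is not given here, so the number of members without overlap is not read as a result about them. The 5 calls were kept when any of the 3 control morula libraries was left out. Without any 1 of the 8-cell libraries NLRP9 no longer passed the filter, and the other 4 calls were kept. Without control replicate 1, the 5 adjusted p-values ran from 4.1e-06 to 0.000865.

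**Figure D2:**
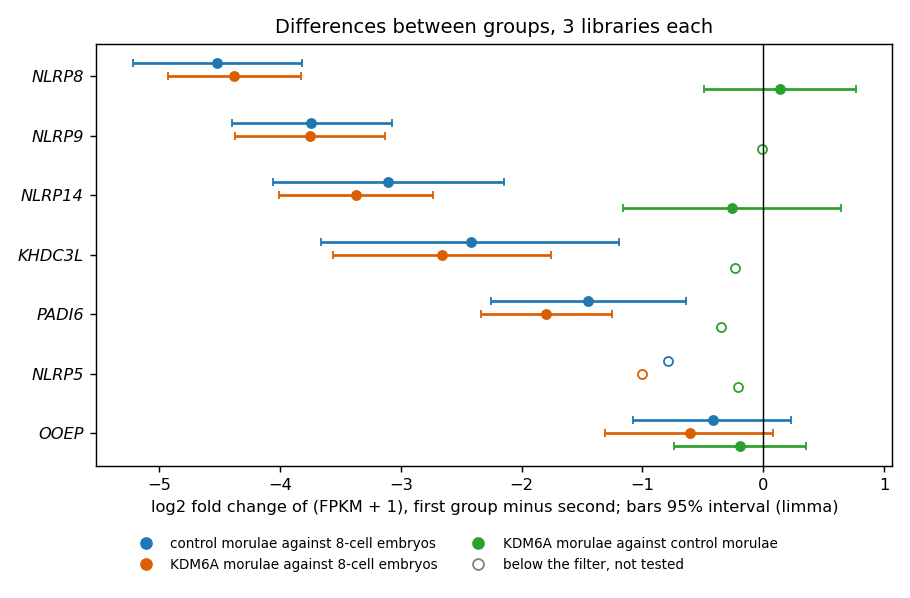
Log2 fold changes of (FPKM + 1) for the 7 genes in the 3 comparisons, with 95% intervals from limma; open circles are genes below the filter, which have no interval. The intervals of NLRP8, NLRP9, NLRP14, KHDC3L and PADI6 lie below 0 in both comparisons with 8-cell embryos, and those of OOEP include 0 in all 3 comparisons.

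The contrast between OOEP and the others was examined after the values were seen. For each gene, the log2(FPKM + 1) of OOEP was subtracted within each library, which removes any scaling of whole libraries apart from the added 1. The difference between the fold change of the gene and that of OOEP, control morulae against 8-cell embryos, was -4.10 for NLRP8, -3.31 for NLRP9, -2.68 for NLRP14, -2.00 for KHDC3L and -1.02 for PADI6. For these 5 genes the 3 morula libraries did not overlap with the 3 8-cell libraries, and the exact permutation test gave p = 0.1, the smallest possible. The share of all genes without overlap after the same subtraction is not given here, so this count is a description. For NLRP5, which is low in both stages, the difference was -0.36 with overlapping groups (exact permutation p = 0.4). Its values lie near or below the added 1, which shrinks this difference. It therefore cannot show whether NLRP5 moved like OOEP. By mean FPKM, NLRP5 was 4.30-fold and OOEP 1.40-fold lower in control morulae. The summed FPKM of the 4 NLRP genes was 2.60 to 3.80 times that of OOEP in 8-cell libraries. In control morulae it was 0.114 to 0.374 times, and in KDM6A morulae 0.165 to 0.228 times, that of OOEP.

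The make-up of the member transcripts shifted accordingly. NLRP8 held 32.4% to 42.5% of the summed FPKM of the 7 genes in 8-cell libraries and OOEP 19.4% to 24.6%. In control morulae OOEP held 64.4%, 88.7% and 86.4% in replicates 1, 2 and 3, and in KDM6A morulae 77.7%, 80.3% and 84.3%. The summed FPKM of the 7 genes was 117.0 to 184.2 in 8-cell libraries and 18.7 to 39.6 in morulae. Among the NLRP genes the leader also changed. NLRP8 was 1.64 to 2.20 times NLRP14 in 8-cell libraries and 0.424 to 0.663 times NLRP14 in control morulae. KDM6A replicate 1, at 1.46 times, lay outside the range of the control morulae, and the other KDM6A libraries, at 0.617 and 0.640 times, lay within it.

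**Figure D3:**
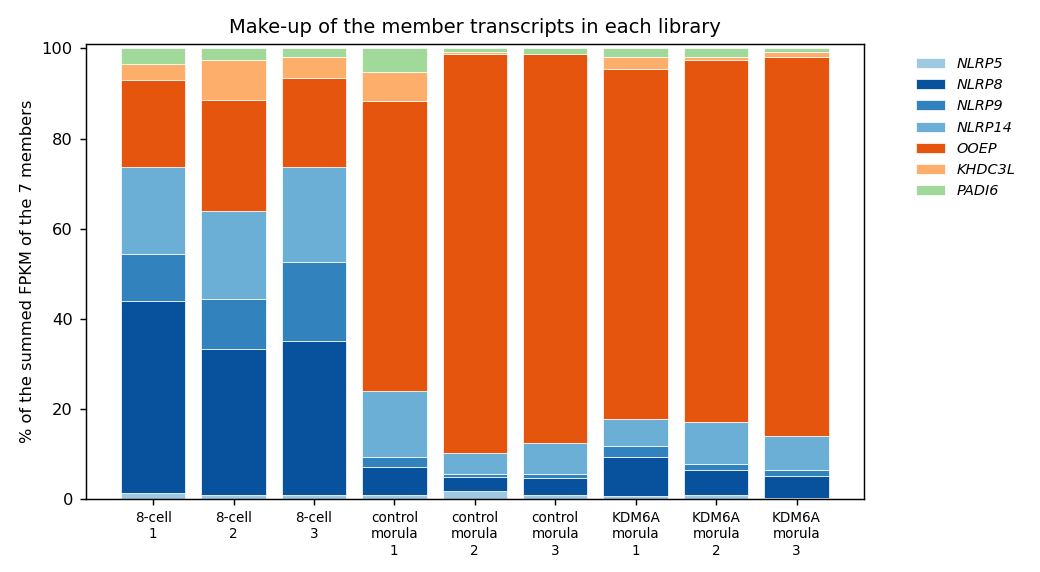
Share of each gene in the summed FPKM of the 7 genes, in percent, with 1 stacked bar per library. NLRP genes (blue) fill most of the bar in the 3 8-cell libraries and OOEP (dark orange) fills 64.4% to 88.7% in the 6 morula libraries.

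Control morula replicate 1 stood apart from the other control libraries in these genes. It held the highest control value for all 7 members, whereas over the 9777 genes tested between KDM6A and control morulae it was highest for 43.3%. The median log2 ratio of replicate 1 to the mean of replicates 2 and 3, with 1 FPKM added, was 0.95 over the 7 members and 0.05 over all genes tested. The genes called lower in control morulae than in 8-cell embryos, 2719 in number, had a median of 0.23, and 64.4% of them were highest in replicate 1. A single library against 2 allows no test. Control replicate 1 was also the only library with rows of no annotated gene (3038), and the part of this difference in the member values was not tested.

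The excess in control replicate 1 differed in size between the members. KHDC3L was at 2.53 FPKM against a mean of 0.035 in the other control libraries, a ratio of 72.3 that rests on values near 0. PADI6 was at 2.04 against 0.27 FPKM (7.56 times), NLRP14 at 5.82 against 1.38 (4.23 times), NLRP9 at 0.88 against 0.21 (4.19 times) and NLRP8 at 2.47 against 0.795 (3.11 times). NLRP5 (1.35 times) and OOEP (1.26 times) were little higher. On the log2 scale, the ratios of KHDC3L, NLRP14, PADI6 and NLRP8 were above those of 97.7% to 99.7% of the genes tested. That of NLRP9 was above 92.8%, that of OOEP above 76.8% and that of NLRP5 above 55.9%. In replicate 1, PADI6 stood at 55.0% of the 8-cell mean, while in replicates 2 and 3 it stood at 4.32% and 10.3%.

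Other maternal transcripts moved in the same library. The 22 other maternal-effect and oocyte transcripts with a single row had a mean log2(FPKM + 1) of 3.75, 1.92 and 2.48 in control replicates 1, 2 and 3, of 2.51 to 2.72 in KDM6A morulae and of 5.11 to 5.44 in 8-cell embryos. The embryo stage markers were close together, with means of 5.17, 5.07 and 5.17 in the control replicates. Cumulus markers summed to 15.3, 14.8 and 13.5 FPKM there, although HAS2 was at 2.20, 0.04 and 0.67 FPKM. The part of any of these in the member values was not tested.

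**Figure D4:**
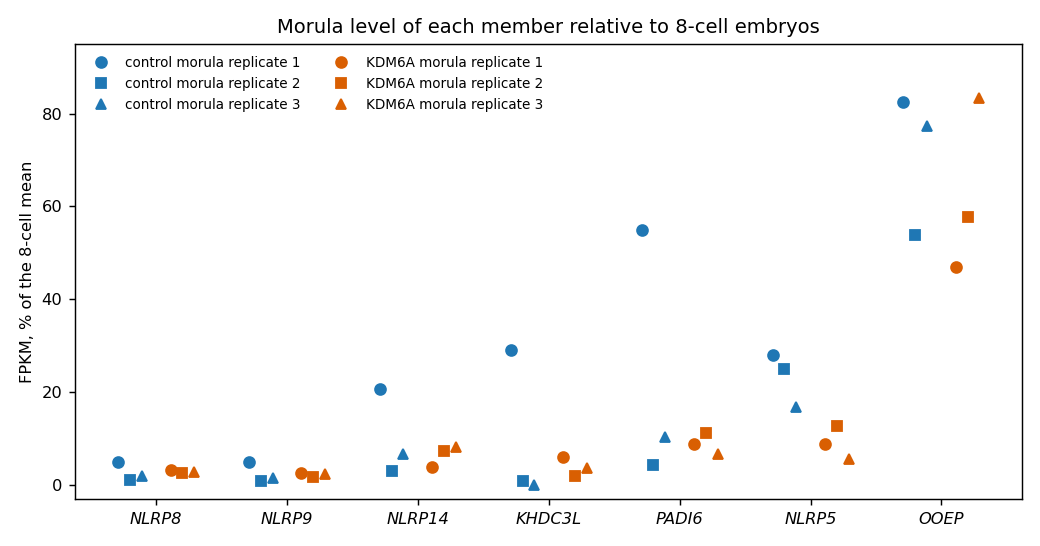
FPKM of each gene in the 6 morula libraries as a percentage of its 8-cell mean, with control morulae in blue and KDM6A morulae in orange and the replicate by marker shape. Control replicate 1 (blue circle) is the highest control value for each gene, reaching 55.0% for PADI6, and OOEP lies at 47.0% to 83.3% in all 6 libraries.

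The comparison of KDM6A morulae with control morulae asks whether supplying KDM6A mRNA changed this maternal stock. No member was called. NLRP8, NLRP14 and OOEP were tested, and 0 of these 3 passed with limma, nor did any reach an unadjusted p under 0.05, which 12.7% of all genes tested did. Over all 9777 genes tested, 16 were called, or 0.164%, so few calls were to be had. That count was 725 without KDM6A replicate 1 and 1 without KDM6A replicate 3, and no member was called in either case. NLRP8 was at 1.63, 1.27 and 1.46 FPKM in KDM6A replicates 1, 2 and 3, all inside the range of the controls at 0.57 to 2.47. Its log2 fold change was 0.14 (95% interval -0.49 to 0.77, limma adjusted p = 0.87), and -0.11 without control replicate 2. NLRP14 was at 1.12, 2.06 and 2.28 FPKM, again within the control range. Its log2 fold change was -0.26 (95% interval -1.16 to 0.64, limma adjusted p = 0.822). Without control replicate 1 it was 0.26. OOEP was at 14.50, 17.83 and 25.68 FPKM, on either side of the controls, with a log2 fold change of -0.19 (95% interval -0.74 to 0.35, limma adjusted p = 0.778). These intervals do not show that the groups were alike.

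The other 4 members were below the filter in morulae and are given as values. NLRP9 was at 0.45, 0.30 and 0.42 FPKM in KDM6A morulae. KHDC3L was at 0.53, 0.16 and 0.31 FPKM, and PADI6 at 0.33, 0.42 and 0.25. All 3 genes lay within the control range. NLRP5 was at 0.11, 0.16 and 0.07 FPKM, below the controls at 0.35, 0.31 and 0.21, and was the only member whose groups did not overlap. Of the genes tested, 8.61% were lower in KDM6A morulae without overlap. With no filter, NLRP5 had a log2 fold change of -0.21 (limma adjusted p = 0.466), and 0 of all genes were called by limma, with 1580 at an unadjusted p under 0.05. The ratio of mean FPKM between control and KDM6A morulae turned from above 1 to below 1 for NLRP9 (1.11 to 0.538), NLRP14 (1.57 to 0.755), KHDC3L (2.60 to 0.105) and PADI6 (2.58 to 0.81) once control replicate 1 was left out. For NLRP8 it went from 0.931 to 0.547.

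KDM6A morulae were also set against 8-cell embryos. This comparison shares its 8-cell libraries with that of the control morulae, so its values stand beside the earlier ones and are no second test of them. Of 10024 genes tested, 25.6% were called lower in KDM6A morulae. Of the 7 members, 6 passed the filter and 5 were called lower, with NLRP9, KHDC3L and PADI6 passing it only through the 8-cell libraries. With no filter, 6 of 7 were called lower against 16.4% of all genes. The mean was 34.8-fold lower for NLRP8 (37.4-fold in control morulae), 46.5-fold for NLRP9 (41.9-fold) and 15.5-fold for NLRP14 (9.86-fold). It was 26.1-fold lower for KHDC3L (10.0-fold) and 11.1-fold for PADI6 (4.31-fold). Log2 fold changes of these 5 genes were from -4.38 to -1.80, with limma adjusted p from 5.29e-07 to 0.00021. Without 8-cell replicate 2 the KHDC3L fold was 14.4. NLRP5 was 11.0-fold lower and below the filter, at a log2 fold change of -1.00 that was called with no filter (limma adjusted p = 0.00396). OOEP had a log2 fold change of -0.61 (95% interval -1.31 to 0.08, limma adjusted p = 0.104). Median-of-ratios scaling gave -0.87 and an adjusted p = 0.0398, the only one of the 13 alternatives that called OOEP.

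Further NLR genes, the wider family to which NLRP genes belong, were mostly low. Of 16 listed, 12 had a single row, and 3 could be tested between control morulae and 8-cell embryos. The row ENSBTAG00000047473.1, which the 8-cell files name NLRP7 and the morula files leave without a symbol, was at 25.45, 34.26 and 38.83 FPKM in 8-cell embryos. It was at 6.84, 2.51 and 2.49 FPKM in control morulae and at 3.31, 3.47 and 3.02 in KDM6A morulae, with control replicate 1 again highest. It was called lower in control morulae and fell by 2.87 on the log2 scale (limma, SE 0.34, adjusted p = 5.65e-05). NLRC4, an inflammasome adaptor that senses bacterial proteins, was called higher in control morulae, from 0.37 ± 0.423 to 1.94 ± 0.283 FPKM (limma adjusted p = 0.00222). NLRX1, a mitochondrial NLR protein, was also called higher, from 0.167 ± 0.189 to 1.85 ± 0.33 FPKM (limma adjusted p = 0.000362). NLRC4 and NLRX1 passed the filter through the morula libraries, where they were high. NLRP3, the inflammasome sensor of innate immune cells, was listed at 0 in the 3 8-cell libraries and stood at 0.39 to 1.83 FPKM in the 6 morula libraries, below the filter in this comparison. Others below the filter were lower in control morulae. NLRP1 was at 0.58, 1.37 and 0.40 FPKM in 8-cell embryos and at 0.07 or less in morulae. NAIP went from 0.69 ± 0.374 to 0.0767 ± 0.0833 FPKM, NOD1 from 1.03 ± 0.801 to 0.303 ± 0.199 and NLRC5 from 1.06 ± 0.48 to 0.28 ± 0.175. NLRP12 stayed at 1.58 FPKM or less in each library.

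Of 8 listed inflammasome partners, 3 could be tested and all 3 were called higher in control morulae than in 8-cell embryos, against 42.7% of all genes. TXNIP had fewer than 3 8-cell libraries at 1 FPKM and passed the filter only through the morula libraries, where it was high. The count of 3 therefore supports nothing about the list. IL18, a cytokine released by inflammasomes, went from 266 ± 97.7 to 412 ± 79.4 FPKM (limma adjusted p = 0.0491), NEK7, a kinase that licenses NLRP3, from 24.1 ± 0.885 to 46.7 ± 1.32 (adjusted p = 0.00113) and TXNIP, a thioredoxin-binding protein, from 1.44 ± 0.648 to 12.6 ± 1.59 (adjusted p = 3.35e-05). PYCARD, the adaptor that links NLRP sensors to caspase-1, was at 0.207 ± 0.156 FPKM in control morulae and 0.0267 ± 0.0462 in 8-cell embryos, and GSDMD and CASP4 were listed at 0 in both groups.

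Proteins known to meet the complex or the lattices gave calls in both directions. Of 14 listed genes, 9 were tested, and 4 were called lower and 1 higher in control morulae, against 27.1% and 42.7% of all genes. The median log2 fold change was -0.31, against 0.35 over all genes. Of the genes called lower, SSH2 had fewer than 3 control morula libraries at 1 FPKM. It passed the filter only through the 8-cell libraries, where it was high. UHRF1, a maternal cofactor of DNA methylation, went from 58.8 ± 18.7 FPKM in 8-cell embryos to 1.98 ± 0.901 in control morulae (log2 fold change -4.32, limma adjusted p = 4.38e-06). The maintenance methyltransferase DNMT1 went from 55.2 ± 18.7 to 8.27 ± 2.28 FPKM (adjusted p = 3.98e-05). SSH2, a phosphatase that activates the actin-severing protein cofilin, went from 6.92 ± 0.967 to 0.97 ± 0.397 (adjusted p = 6.53e-05). The small GTPase RHOA went from 653 ± 135 to 232 ± 75.4 (adjusted p = 0.000475). YWHAB, a 14-3-3 adaptor, was the gene called higher. Between KDM6A and control morulae 0 of these 9 were called by limma, and 2 had an unadjusted p under 0.05, against 12.7% of all genes.

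Relatives of OOEP, TLE6 and PADI6 were looked up by symbol. Of 13 listed genes 9 had a row, all of them relatives of TLE6 or PADI6, and 3 were tested between control morulae and 8-cell embryos. None of the KH-domain genes on this list had a row, so nothing is said of these, and KHDC3L is treated with the members. PADI1 had no 8-cell value and PADI4 no morula value. The corepressor TLE1 was called higher in control morulae, at 17.0 ± 2.94 against 10.1 ± 3.86 FPKM (limma adjusted p = 0.0438). TLE3 and TLE4 gave no call (adjusted p = 0.0791 and 0.99). The deiminases PADI2 and PADI3 were below 1 FPKM on average in both groups.

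Genes listed as regulators in the oocyte, most of them transcription factors, were examined as well. Of 9 listed, 4 were tested between control morulae and 8-cell embryos, and 2 were called lower, against 27.1% of all genes. TAF4B, a gonad-enriched TFIID subunit, went from 20.3 ± 3.46 to 2.99 ± 0.0907 FPKM (limma adjusted p = 1.6e-05) and YBX2, a germ cell RNA-binding protein, from 27.1 ± 10.5 to 4.26 ± 1.36 (adjusted p = 0.000118). LHX8 and SOHLH2 gave no call, at 5.42 ± 0.614 and 16.4 ± 3.54 FPKM in control morulae (adjusted p = 0.144 and 0.109). FIGLA was at 0.897 ± 0.319 FPKM in 8-cell embryos and 0.0867 ± 0.15 in control morulae, and NOBOX at 0.22 ± 0.115 and 0.03 ± 0.0361, both below the filter.

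Of the 22 other maternal-effect and oocyte transcripts, all tested between control morulae and 8-cell embryos, 19 were called lower and 2 higher, against 27.1% and 42.7% of all genes. Of the 22, 7 had fewer than 3 control morula libraries at 1 FPKM and passed the filter only through the 8-cell libraries. The median log2 fold change was -2.89, against 0.35 over all genes. NPM2, an oocyte nucleoplasmin, went from 71.8 ± 31.8 to 2.24 ± 1.79 FPKM (limma adjusted p = 1.29e-05). ZP2, a coat protein of the oocyte, went from 45.9 ± 3.48 to 5.24 ± 3.99 (adjusted p = 6.15e-05), and the oocyte transcript BCAR4 from 52.8 ± 24.9 to 2.16 ± 2.05 (adjusted p = 6.11e-05). PAN2, a deadenylase subunit, and LIN28A, an RNA-binding protein of stem cells, were the 2 called higher. Both had fewer than 3 8-cell libraries at 1 FPKM and passed the filter only with the help of the morula libraries, where they were high. The counts of 19 and 2 thus rest in part on genes let in by the group where they were high. PATL2, at 1.92 ± 0.234 and 2.70 ± 0.909 FPKM, gave no call (adjusted p = 0.291). Between KDM6A and control morulae 20 of these genes were tested and 0 were called by limma, with a median log2 fold change of -0.18 and 1 gene at an unadjusted p under 0.05, again against 12.7% of all genes.

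Genes whose pattern came closest to that of the members were found by the root mean square difference between centred log2(FPKM + 1) profiles over the 9 libraries. The member profile was the mean of the 6 members that reached 1 FPKM in at least 3 libraries, and 7882 genes were searched. LETM2, a relative of a mitochondrial inner membrane protein, came closest at 0.099 log2 units. It was at 11.27, 17.72 and 14.29 FPKM in 8-cell embryos, 3.16, 0.64 and 0.98 in control morulae and 1.01, 1.08 and 1.19 in KDM6A morulae. MPP7, a membrane scaffold protein (0.106), RAB3C, a GTPase of secretory vesicles (0.136), ARHGAP25, a GTPase-activating protein (0.168), PABPN1L, a poly(A)-binding protein of oocytes (0.186) and PPARGC1A, a coactivator of mitochondrial genes (0.187), followed. Since these genes were chosen for their likeness to that profile, their pattern over the libraries is a description. Among the members, NLRP14 lay 0.334 and KHDC3L 0.354 from the mean profile, and OOEP lay farthest at 1.055.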

How the data were processed

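RNA sequencing was analysed for 9 libraries in 3 groups of 3, grouped by the titles in the labels. The authors deposited gene-level FPKM with 2 decimals, per the file headers. The submitters' processing notes name RSEM 1.2.12, Bowtie2 2.2.5, StringTie 1.0.4, HISAT 0.1.6 and bcl2fastq 2.16, and UMD3.1 as the build. The sources used here do not give their roles. Depth is unknown, since low values showed no steps of whole reads (most common ratio bin 3.92% to 8.57% of genes over 36 library pairs).

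Files were joined by gene identifier. Rows of control replicate 1 with no annotated gene (3038) were left out. With limma 3.58.1 (R 4.3.3), the 6 libraries of a comparison were fitted alone. The model was 1 mean for each group on log2(FPKM + 1), a trended prior variance, a filter of 1 FPKM in 3 libraries and Benjamini-Hochberg adjustment over all genes tested. The script was tested on simulated data. Folds written "-fold" are ratios of mean FPKM. Tables and figures were made in Python 3.11.15 with matplotlib 3.10.9, numpy 2.4.6 and pandas 2.3.3.

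Members, gene lists and tests were chosen with earlier results of these data known. All members are named, together with up to 4 tested genes of each list with the smallest p in control morulae against 8-cell embryos and the 6 genes nearest to the mean member profile. Further list genes named (among them NLRP1, NLRP3, NLRP12, NAIP, NOD1, NLRC5, PYCARD, GSDMD, CASP4, YWHAB, PADI1, PADI2, PADI3, PADI4, FIGLA, NOBOX, LIN28A, PATL2, LUM, FBN1, CYP19A1, GREM1, COL3A1, NANOG, TFAP2C, ZSCAN4 and KLF17) were chosen after their values were seen. Alternatives were a pseudocount of 0.1, no filter, a filter of 5 FPKM, median-of-ratios scaling, quantile normalization, a fit of all 9 libraries, leaving out each replicate and a block for the replicate number. No sequences of the members were used here.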

Additional observations from a re-analysis of the deposited data

How the results depend on the processing

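Between control morulae and 8-cell embryos, and between KDM6A morulae and 8-cell embryos, the 5 members called lower kept direction and call under each alternative in which they were tested. A filter of 5 FPKM left 4 members tested and 3 called in either comparison. Leaving out a library gave 4 to 5 calls in the former and 2 to 5 in the latter, the lower counts being without 8-cell replicate 1, 2 or 3, where 5 and 3 members were still tested. With no filter NLRP5 was called in addition, and median-of-ratios scaling called OOEP lower in KDM6A morulae than in 8-cell embryos. Between KDM6A and control morulae 0 members were called under any alternative. There, over the replicates left out, NLRP8 ran from -0.11 (without control replicate 2) to 0.46 and NLRP14 from -0.68 to 0.26 (without control replicate 1), so both changed sign, and the cause was not tested. All genes called in that comparison, 16, became 28 after quantile normalization, 9 with all 9 libraries in 1 fit and 0 with no filter, and ran from 1 to 725 over the replicates left out, with 725 without KDM6A replicate 1, 1 without KDM6A replicate 3, 3 without KDM6A replicate 2 or control replicate 3 and 8 without control replicate 2. Control replicate 1 exceeded the other controls by a median of 1.66 log2 units over the members with a pseudocount of 0.1, chosen after seeing the data, against 0.95. Members below 1 FPKM, NLRP5 in particular, rest on values near the rounding step of the files, and the unknown depth limits what they can show.

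Same-numbered libraries of the groups did not deviate together in all pairs (correlations of -0.242 to 0.160). With 3 libraries in each group, these values cannot show whether same-numbered libraries share more than a number. Libraries closest to their own number were 2 of 6, 0 of 6 and 4 of 6 in the 3 comparisons. With the replicate block, 1 gene was called between KDM6A and control morulae, and no member's call changed in any comparison.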
